A study of Drosophila melanogaster with 4 samples.

Results

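Isolated MBD-R2 regions were stretches of enriched chromatin that stood alone along the chromosome in fly embryos. They were regions of the replicate 1 list that overlapped a replicate 2 region by at least 1 bp and were narrower than 7000 bp. Overlapping regions of both replicates were first merged into stretches. The merged stretch of an isolated region had at least 15 kb free of any other stretch on each side. Neighbours and distances in the replicate lists refer to these stretches, and 29 isolated regions shared theirs with another replicate 1 region. Of 4586 replicate 1 regions, 4501 lay on the arms X, 2L, 2R, 3L, 3R and 4, and 4073 of these were shared with replicate 2. The isolated ones numbered 399, which was 9.80% of the shared regions (95% Wilson interval 8.92 to 10.7%). A further 10 shared regions had gaps as long but were 7 kb or wider, and 4 had a far neighbour on 1 side and the arm end on the other. Neither kind was counted as isolated. The remaining 3674 shared regions included 3455 narrower than 7000 bp, and these 3455 are called the other shared regions below.

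The study mapped MBD-R2 by ChIP-seq, the sequencing of immunoprecipitated chromatin, in whole embryos of Drosophila melanogaster, 14 to 16 h old, of the wild-type Oregon-R strain. There were 2 ChIP libraries, made with antibody Q4167, and 2 input libraries of the same strain, genotype and age, which are sequenced chromatin without immunoprecipitation. Each input shares its replicate number with 1 ChIP library in the labels, and the inputs have no list of their own here. Whole embryos hold many cell types, and an enriched region in 1 cell type cannot be told apart from a weaker one in all. Whether separate embryo collections gave the 2 replicates is not stated in the labels, and the read depth behind each region is unknown.

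MBD-R2 is a subunit of the NSL complex of flies, which contains the histone acetyltransferase MOF. The complex is known for binding near the start sites of actively transcribed genes, many of them housekeeping genes, on all chromosomes. Fly genes lie close together in gene-rich stretches and far apart in gene-poor ones. The positions are on release 5 of the genome, while the only gene annotation used here is of release 6, so genes and sequence at these regions were not analysed here.

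The isolated regions were selected on measured values, namely their overlap, width and distance in these lists. Their scores come from the same lists, and regions within a list are not replicates. All values below are therefore descriptions without a test, given for both replicates. Each score is the authors' own value for a region, on a scale that the sources used here leave unstated. The replicate 2 value of a region is that of its highest-scoring overlapping partner.

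Isolated regions were typically weaker and narrower than other shared regions, though their ranges overlapped widely. Their median score was 0.817 in replicate 1 and 0.884 in replicate 2, against 0.998 and 1.06 for the other shared regions. The difference in median score was -0.181 in replicate 1 and -0.173 in replicate 2, a mean of -0.177 ± 0.0056 (SD, n = 2). Both replicates thus gave nearly the same difference. The SD of the medians between replicates was 0.047 for isolated regions and 0.042 for the other shared regions. Both medians were higher in replicate 2, and a shift that both groups share does not enter a difference taken within each replicate.

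Weak regions were more common among isolated ones, and strong ones less common but present. Scores of isolated regions ran from 0.251 to 2.14 in replicate 1, with quartiles of 0.593 and 1.17. For the other shared regions they ran from 0.197 to 2.87, with quartiles of 0.682 and 1.30. The lowest-scoring 10% of all shared regions in replicate 1 took in 65 of the 399 isolated regions (16.3%) and 9.93% of the other shared regions. The highest-scoring 10% took in 28 isolated regions (7.02%) and 9.61% of the other shared regions. In replicate 2, 81 isolated regions (20.3%) were in the lowest 10% and 28 in the highest, against 9.46% and 9.61% of the other shared regions.

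**Figure D1:**
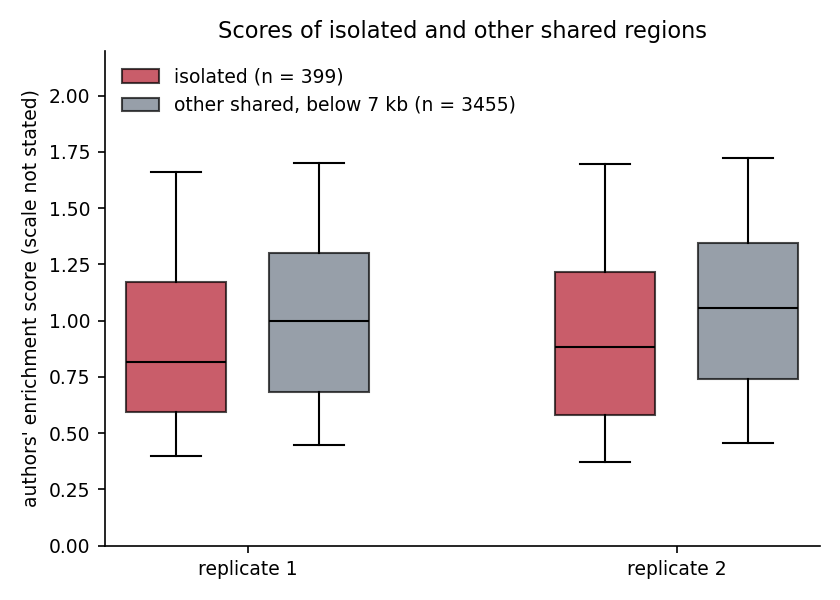
Authors' enrichment scores of isolated regions (red, left in each pair) and other shared regions below 7 kb (grey, right), in each replicate. Boxes give the quartiles and the median, and whiskers reach the 5 and 95 percentiles; isolated regions had the lower medians, 0.817 against 0.998 in replicate 1 and 0.884 against 1.06 in replicate 2, with wide overlap.

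Isolated regions were also narrow. Their width had a median of 2421 bp in replicate 1, against 2919 bp for the other shared regions. In replicate 2 the medians were 2585 bp for partners of isolated regions and 3204 bp for partners of the others. The mean difference was -558.5 bp ± 86 (SD, n = 2). The width limit held for the replicate 1 regions of both groups, but width is one of the values that selected the isolated ones. In replicate 1, 217 isolated regions (54.4%) were narrower than 2500 bp, against 37.8% of the other shared regions.

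At like width, the score difference was much smaller. Scores and widths were compared in bins of 500 bp, and the differences in median score were weighted by the number of isolated regions in each bin. The weighted difference was -0.026 in replicate 1, and -0.0059 in replicate 2 over the 384 isolated regions whose partner was also below 7 kb. Its mean was -0.016 ± 0.014 (SD, n = 2), which is about the size of its own spread, against -0.177 without width bins. With bins of 250 bp it was -5.4e-05. Other settings gave larger values, -0.026 ± 0.0034 with a minimum gap of 20 kb, -0.038 ± 0.023 with 30 kb and -0.038 ± 0.0053 with gaps taken from the combined list (SD, n = 2 each).

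Score climbed steeply with width up to about 3 kb and then levelled off, in both groups. Isolated regions of 1500 to 2000 bp had a median score of 0.477 in replicate 1 (68 regions), against 0.494 for the other shared regions. Those of 2000 to 2500 bp had a median of 0.738 (126 regions), against 0.762. Those of 2500 to 3000 bp had a median of 1.09 (64 regions), against 1.06. At that last width the isolated regions had the higher median. In replicate 2 the medians at these 3 widths were 0.433, 0.717 and 1.14 for isolated regions, against 0.458, 0.735 and 1.06. The widest departure in a bin with at least 20 isolated regions was at 3500 to 4000 bp. There the median was 1.08 in replicate 1 (25 regions), against 1.25, and 1.08 in replicate 2 (28 regions), against 1.29. Across the 399 isolated regions, width and score had a Spearman rho of 0.790 in replicate 1 and 0.746 in replicate 2. Both values of a region come from 1 library, so this is a description.

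**Figure D2:**
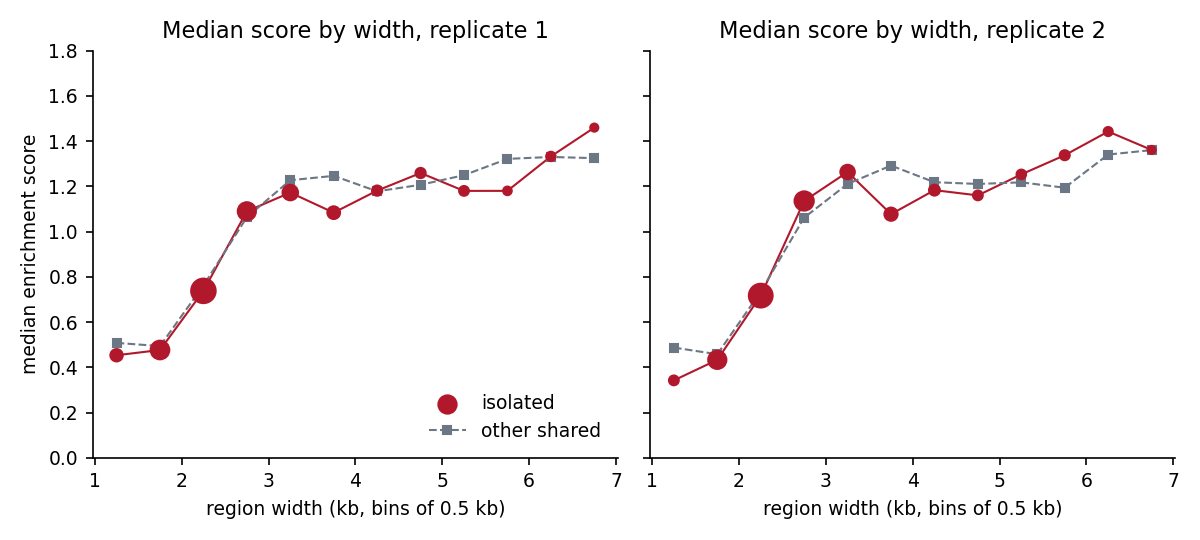
Median enrichment score by region width in bins of 0.5 kb, for isolated regions (red circles, larger where there are more regions) and other shared regions (grey squares), in each replicate. The curves lie close together, climbing to 1.09 for isolated and 1.06 for other shared regions of 2500 to 3000 bp in replicate 1 and flattening beyond.

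The lower level of isolated regions set in short of the limit, and the score had no step at 15 kb. Shared regions narrower than 7000 bp with a neighbour less than 1 kb away had a median score of 1.05 in replicate 1 and 1.11 in replicate 2 (1181 regions). From 1 to 10 kb the medians changed little. They were 0.980 and 1.04 at 1 to 2 kb (612 regions) and 0.988 and 1.04 at 2 to 5 kb (944 regions). At 5 to 10 kb the medians were 0.961 and 1.04 (496 regions). At 10 to 15 kb, just short of the limit, they were already 0.882 and 0.901 (209 regions). Among isolated regions they were 0.830 and 0.918 at 15 to 30 kb (244 regions), then 0.742 and 0.802 at 30 to 60 kb (118 regions). The most remote, at 60 kb or more, did not continue the decline, with medians of 0.867 and 0.852 (37 regions). Median width in replicate 1 was 3062 bp under 1 kb, 2534 bp at 10 to 15 kb and 2357 bp at 60 kb or more. The replicate 2 partners were 3366 bp, 2774 bp and 2787 bp wide at these distances, and narrowest, at 2524.5 bp, at 15 to 30 kb. Width beyond 15 kb thus differed in its course between the replicates.

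**Figure D3:**
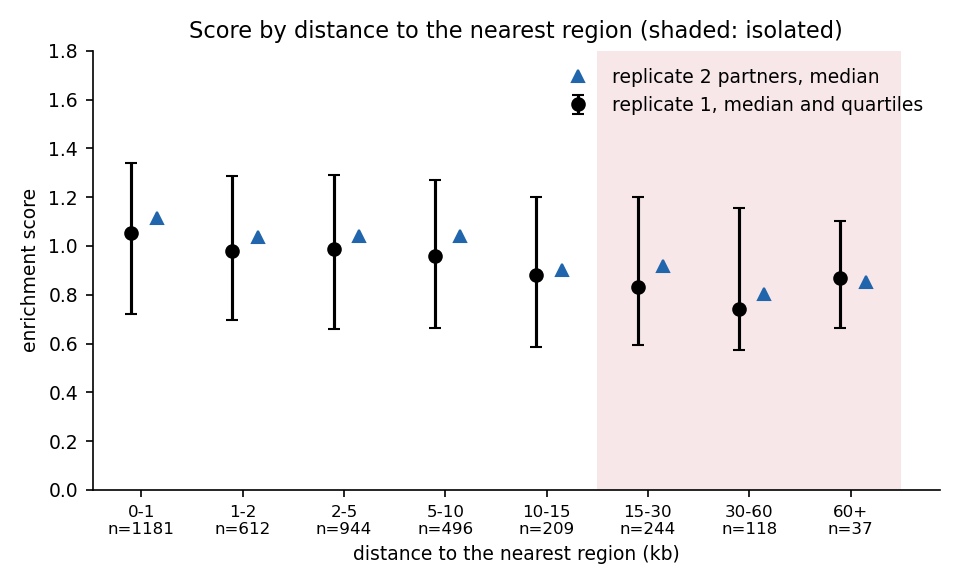
Score of shared regions narrower than 7 kb against distance to the nearest region in kb. Black points and bars give the median and quartiles in replicate 1, blue triangles the median of replicate 2 partners, and shading marks the isolated regions; replicate 1 medians run from 1.05 under 1 kb to 0.742 at 30 to 60 kb.

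How far apart the regions stood varied over more than an order of magnitude. The nearest region outside the merged stretch was between 15.0 and 209.8 kb away, with a median of 25.1 kb. The gap on the longer side had a median of 57.5 kb and reached 471.9 kb. For 3442 other shared regions, those at arm ends left out, it had a median of 11.2 kb and the same maximum. In the replicate lists, 109 of 399 isolated regions (27.3%) had a gap of at least 100 kb on 1 or both sides. A gap of at least 200 kb was found at 27 (6.77%). The matching shares of the other shared regions were not computed. In 11 regions (2.76%) the nearest region was at least 100 kb away.

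Of the 5 most remote regions, 4 scored below the replicate 1 median of the other shared regions. On 2L, the region from 17750488 to 17752541 stood 247.8 kb from its left and 209.8 kb from its right neighbour, with scores of 0.668 (replicate 1) and 0.599 (replicate 2). Its edges differed between replicates by 7 bp at the start and 22 bp at the end. The second most remote, on 3R from 15227124 to 15231386, was strong, with scores of 1.73 in replicate 1 and 1.82 in replicate 2 and free flanks of 161.5 and 231.1 kb. The next 3 were an X region from 2841147 to 2843379, scoring 0.726 and 0.802, and a pair of 2L regions. The pair ran from 15498228 to 15500584, scoring 0.894 and 0.787, and from 15910643 to 15913431, scoring 0.703 and 0.820. Scores near the top of the range were thus seen in 1 of these 5 regions, and the most remote of them lay in the lowest-scoring 25% of shared regions in both replicates.

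The strongest isolated region lay on X from 5929376 to 5934490. It was 5115 bp wide, scored 2.14 in replicate 1 and 1.99 in replicate 2, and ranked 11 among all shared replicate 1 regions. Its neighbours were 20.8 kb away on either side. Next came a 2924 bp region on 3R from 25659288 to 25662211, with scores of 2.05 and 1.89. Its edges matched closely between replicates, with the same last base and a first base 5 bp apart. It was also among the less remote, with 16.2 kb to its nearest neighbour.

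Strong isolated regions were found on every large arm. On 3R, a region from 11970939 to 11974973 had scores of 1.93 in replicate 1 and 2.02 in replicate 2, and another, from 11758342 to 11762565, had 1.87 and 1.92. On 2R, the region from 14857122 to 14861872 combined strength with distance, scoring 1.92 and 2.01 with free flanks of 114.1 and 154.2 kb. A second 2R region, from 15555501 to 15559618, scored 1.78 and 1.85. The 3L regions from 13956356 to 13959797 and from 539442 to 543942 scored 1.82 and 1.91, and 1.81 and 1.77. The other X region of the top 10, from 20986900 to 20989459, scored 1.77 and 1.45, and the strongest 2L region, from 7884179 to 7887029, scored 1.72 and 1.77. Chromosome 4 had no strong one among its 8: its best, from 950141 to 952588, scored 0.973 and 0.990. The other shared regions there were low as well, with median scores of 0.674 in replicate 1 and 0.689 in replicate 2. In all, 6 of the 100 highest-scoring shared regions of replicate 1 were isolated, against 9.80% of all shared regions. That ranking includes shared regions of 7 kb or wider, which the width limit keeps from being isolated.

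The weakest isolated regions were narrow, and small in both replicates. The lowest score, 0.251 in replicate 1, belonged to a 1781 bp region on 2L from 21794363 to 21796143, whose partner scored 0.421. The next 4 in replicate 1 scored between 0.278 and 0.299 and were 1409 to 1628 bp wide. Their partners scored between 0.258 and 0.497. The region on 2L from 5460715 to 5462169, with 0.290 in replicate 1 and 0.258 in replicate 2, was the lowest of all 399 in replicate 2.

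The widest isolated regions scored above the isolated median, and 3 of the 5 were split in replicate 2. The widest, 6916 bp on 3L from 17899827 to 17906742, scored 1.21 in replicate 1 and overlapped 2 replicate 2 regions, the stronger of which was 2941 bp wide and scored 1.48. Likewise split were an X region from 9210581 to 9216832, scoring 1.28 in replicate 1 and 1.70 for its best partner, and a 2L region from 5798965 to 5805185, with 1.14 and 1.16. A pair of 2L regions was single in both lists. The first, from 15004867 to 15011464, scored 1.48 and 1.60, and the second, from 3372056 to 3378564, scored 1.46 and 1.43.

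The 3 members with the shortest gaps had their nearest region at 15039, 15163 and 15163 bp and scored 0.420, 1.52 and 1.46 in replicate 1. The 3 shared regions that missed by least had it at 14987, 14943 and 14925 bp and scored 1.26, 1.82 and 1.08. With 3 regions on each side the scores overlapped, and the lowest was inside the limit. The 3 widest members measured 6916, 6598 and 6509 bp. The 3 narrowest regions left out for width measured 7160, 7163 and 7299 bp, with scores of 1.20, 0.955 and 1.61.

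Both replicates drew isolated regions with closely similar outlines. The bases under both the replicate 1 region and its partner were a median of 91.2% of the bases under either, against 89.0% for the other shared regions. The start differed between replicates by a median of 85 bp and the end by 95 bp, against 136 and 128 bp. One-to-one pairing held for 367 of 399 isolated regions (91.98%), against 87.7% of the other shared regions. Among one-to-one pairs alone, the shared bases were 91.8% of the total, against 90.4%.

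This likeness of outline was present at every score level, and the difference was widest among weak regions. Among the lowest-scoring 25% of shared regions in replicate 1, widths were alike, with medians of 1921 bp for 151 isolated and 1927.5 bp for 868 other shared regions. The shared bases there were 88.9% for isolated regions, against 81.9%, and 89.8% against 84.1% among one-to-one pairs. Among the highest-scoring 25% they were 93.7%, against 92.0%, and 94.9% against 92.9% among one-to-one pairs. Other shared regions have close neighbours that a caller can join or split, and that part in the difference was not tested beyond the restriction to one-to-one pairs.

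Scores of isolated regions also followed each other between replicates. The Spearman rho was 0.926 over the 399 isolated regions and 0.917 over the 3455 other shared regions. Replicate 2 gave the higher score in 232 isolated regions (58.1%), and in 63.0% of the other shared regions. Several replicate 1 regions can share 1 strong partner, and the part of this in these 2 shares was not tested. The median absolute difference was 0.086 for isolated regions and 0.098 for the others.

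A few isolated regions departed from this. With a partner of its own, an X region from 12439490 to 12441703 had a score of 0.795 in replicate 1 but 0.285 in replicate 2. Other departures came from regions that shared a partner. A 2L region from 1079542 to 1082463 had 0.947 in replicate 1 and 1.73 for its partner, which also overlapped a stronger isolated region from 1076376 to 1079381 with 1.50 in replicate 1. The largest departure, 0.606 in replicate 1 and 1.44 in replicate 2, was on 3R from 1645804 to 1648005. That region and the one from 1648605 to 1652043, which scored 1.79 in replicate 1 and was also isolated, shared a single 6412 bp partner in replicate 2. So these 2 regions of replicate 1 are 1 isolated stretch. In all, the 399 regions fell in 383 stretches, and 29 regions shared their stretch with another replicate 1 region. The regions of large departure were chosen after their values were seen.

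**Figure D4:**
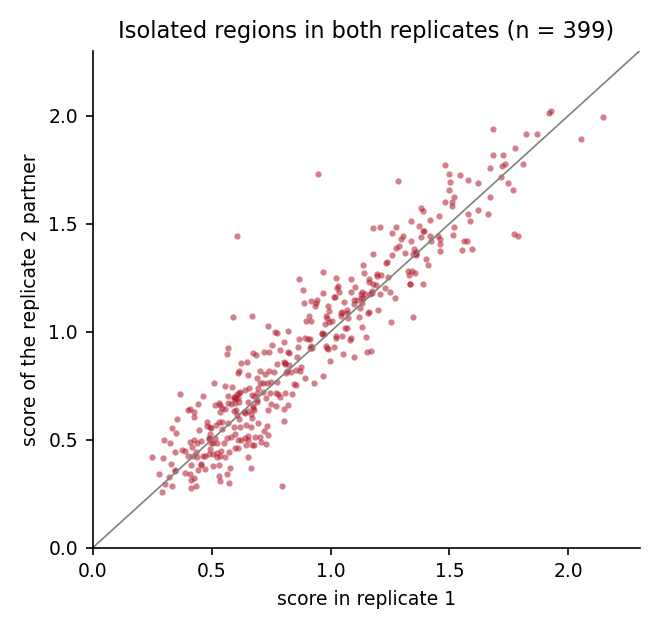
Score of each of the 399 isolated regions in replicate 1 (horizontal) and of its partner in replicate 2 (vertical), with the line of equal scores in grey. Most points lie along the line (Spearman rho 0.926), and the few far above it include the 3R region with 0.606 and 1.44.

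Isolated regions were unevenly spread over the arms. They made up 6.51% of shared regions on X (51 of 783, 95% Wilson interval 4.99 to 8.46%) and 10.5% on 2L, 2R, 3L and 3R together (340 of 3235, 9.50 to 11.6%), a difference of -4.00 percentage points. Among the autosomal arms the share was 13.0% on 2L (89 of 682), 11.4% on 3R (107 of 942), 10.2% on 3L (77 of 752) and 7.80% on 2R (67 of 859). On chromosome 4 it was 14.5%, from 8 of 55 regions, with an interval of 7.56 to 26.2%. These intervals cover counting error only, and neighbouring regions are not independent.

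Among the large arms, the shares ran partly against how many shared regions each arm held. Chromosome 4 went the other way, with the most shared regions per Mb, 40.7, and the highest share, 14.5%, from 8 isolated regions. Shared regions numbered 29.6 per Mb on 2L and 40.6 per Mb on 2R, the large arms with the highest and the second lowest isolated share. X held the lowest share with 34.9 shared regions per Mb, close to the 33.8 per Mb of 3R. Isolated regions themselves numbered 2.27 per Mb on X, 3.14 on 3L, 3.17 on 2R, 3.83 on 3R, 3.87 on 2L and 5.92 on chromosome 4. With a minimum gap of 30 kb in place of 15 kb, the difference between X and the 4 autosomal arms was -0.257 points, and it was -4.62 points at 10 kb and -2.44 points at 20 kb. The median distance to the nearest region was 32.3 kb for isolated regions on X and 23.0 to 27.5 kb on the large autosomal arms.

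**Figure D5:**
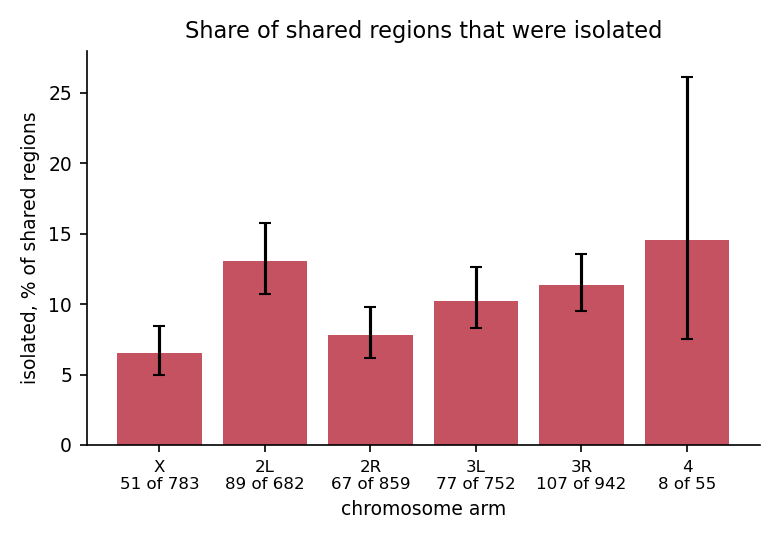
Percentage of shared regions that were isolated on each chromosome arm, with the counts under each bar and 95% Wilson intervals as error bars. X is lowest among the large arms at 6.51% and 2L highest at 13.0%; the interval on chromosome 4 is wide because it rests on 8 of 55 regions.

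On every arm the median score of isolated regions was the lower one, in both replicates. The difference was -0.276 in replicate 1 and -0.296 in replicate 2 on X, and -0.218 and -0.265 on 2R. It was -0.184 and -0.139 on 3L, -0.149 and -0.145 on 3R, and -0.090 in each replicate on 2L. On chromosome 4 it was -0.068 and -0.060, with 8 isolated regions. X thus had the largest difference and 2L the smallest among the large arms. Whether the score difference varies between arms was not tested, and it was not matched for width within arms. In replicate 1 the median width on X was 2358 bp for isolated and 3017 bp for other shared regions. On 2L it was 2430 and 2819 bp. Chromosome 4 was the only arm where isolated regions were not narrower in replicate 1, with 2176 and 2154 bp. In replicate 2 the medians there were 2333 and 2844 bp. The median level of isolated regions on X was 0.795 in replicate 1, against 1.07 for the other shared regions there, and that of 2L was 0.865, against 0.955.

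In the combined list, which the authors deposited for the replicate set, exactly 1 region overlapped each isolated region. The same held for 99.7% of the other shared regions. The 399 isolated regions overlapped 383 distinct regions of that list. At these places its regions scored 0.792 and spanned 2919 bp in the median, against 0.964 and 3979 bp at the other shared regions. It also placed further regions in the flanks. Of the 399 isolated regions, 209 (52.4%, 95% Wilson interval 47.5 to 57.2%) still had 15 kb free on each side in that list, and 299 (74.9%) had 5 kb free. Within 15 kb of the isolated regions it held 263 further regions, of which 258 overlapped no region of either replicate. The 263 were small and weak, with medians of 1317 bp in width and 0.358 in score, and 245 of them (93.2%) scored below the combined list's median of 0.497 on the 6 arms. The sources used here do not state how that list was made.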

How the data were processed

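The authors aligned reads with Bowtie 0.12.7, per the submitters' processing notes. Positions are on FlyBase release 5, per the file headers, and each deposited list holds regions of significant enrichment with a score per region. The sources used here state neither the scale and normalization of that score nor the caller and its threshold. The authors deposited a list for each ChIP replicate and a combined list. Regions were counted from 1 and merged over both replicates when they overlapped by at least 1 bp, and gaps ran between merged regions. Regions on Het and U sequences, or first or last on an arm, could not be isolated. Medians per replicate list, their mean and SD (n = 2), and 95% Wilson intervals were computed, with no test. The named regions were the 10 highest-scoring, 5 lowest-scoring, 5 widest and 5 most remote, the best of each arm and 3 on each side of each limit. The regions and lists were chosen with earlier results of these data known. The rule was tested on simulated lists with known isolated regions. Python 3.11.15, NumPy 2.4.6, pandas 2.3.3, SciPy 1.17.1 and matplotlib 3.10.9 were used. Alternatives covered gap, width, overlap, partner, the lists that set gaps, and the regions compared.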

Additional observations from a re-analysis of the deposited data

How the results depend on the processing

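The score and width differences kept their sign in every alternative run, 19 and 17 in number. The count of isolated regions was 608 with a minimum gap of 10 kb, 155 with 30 kb and 221 with gaps from the combined list. It was 606 when only regions found in both replicates counted as neighbours (an added setting, chosen with the data in view). The score difference was -0.169 with a gap of 10 kb, -0.193 with 20 kb and -0.221 with 30 kb. It was -0.191 with 50% overlap, -0.196 with no width limit, -0.159 below 4000 bp, -0.153 with gaps from the combined list, -0.201 with gaps from replicate 1 and -0.186 with the longest-overlapping partner. It was -0.209 against all other shared regions, -0.204 against those with a neighbour within 2000 bp and -0.122 between means. Among the 50% of regions with the highest scores, which selects on the score itself, it was -0.042. Other such added settings gave -0.155 with only such neighbours, -0.169 within arms and -0.212 for one-to-one pairs. The width difference was -328 bp below 4000 bp, -668.75 bp against all other shared regions, -658.5 bp against those with a near neighbour and -248.5 bp among the highest-scoring 50%. With either replicate alone the score difference was between -0.181 and -0.173 and the width difference between -619 and -498 bp. Within width bins the score difference was -0.038 with a gap of 30 kb, -0.038 with gaps from the combined list and -5.4e-05 with bins of 250 bp. The difference between X and the autosomal arms was -0.257 points with a gap of 30 kb. The share isolated in the combined list was 74.9% with a gap of 5 kb. The causes were not tested. Read depth is unknown, so a region missing from a list may reflect depth. No paired analysis was possible because the inputs, which share replicate numbers with the ChIP libraries, have no list of their own here, so there are no 2 groups of samples to compare. The differences between isolated and other shared regions were taken within each replicate.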

Other observations

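Isolated regions of 1 replicate were missing from the other more often than regions that were not isolated. In replicate 1, 399 of 488 isolated regions on the arms below 7 kb (81.8%, 95% Wilson interval 78.1 to 84.9%) had a replicate 2 partner, against 91.1% of the regions that were not isolated. In replicate 2 it was 390 of 518 (75.3%, 71.4 to 78.8%), against 84.9%. The 89 isolated replicate 1 regions without a partner had a median score of 0.471, against 0.566 for the 339 regions without a partner that were not isolated. Those with a partner scored higher, with medians of 0.817 (isolated) and 0.998 (not isolated). The shares were not matched for score, so the part of the lower scores of isolated regions in this was not tested. A region with close neighbours can also meet a partner that is centred on a neighbour, and the part of this in the difference was not tested.

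Isolated stretches occurred singly and in runs of up to 5. Of the 383 stretches, 195 (50.9%) were next in line to another one. Neighbouring stretches share the long gap between them, so the rule itself favours runs, and nothing is read from this share. The longest run, on 2L from 8683695 to 8999279, held 5 isolated stretches over 315.6 kb. Of the sides facing a neighbour, 25.6% faced a region found in 1 replicate only, against 22.9% of all 4994 merged regions on the arms. Over 118 full windows of 1 Mb, the number of isolated regions and the number of shared regions had a Spearman rho of -0.042, with neighbouring windows not independent. The window with the most isolated regions was on 3R from 17000001 to 18000000, with 11 of its 29 shared regions isolated, and 10 windows had 0. These windows and runs were chosen after their values were seen.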
